A study of Mus musculus with 13 samples.

Results

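The genes described here are 10 cytosolic heat shock chaperones and co-chaperones, taken by name from a table of 43430 genes: Hspa1a, Hspa1b, Hspa8, Hsph1, Hspa4l, Hsp90aa1, Dnaja1, Dnajb1, Chordc1 and Stip1. All 10 passed the filter on low counts, which kept 11906 genes. Hspa1a and Hspa1b are near-identical copies, so their summed counts are given as well. RNA came from alveolar macrophages, phagocytes that live on the inner surface of the air sacs, which were sorted by flow cytometry from male C57Bl/6 mice 10 weeks old. The treatment groups combined metformin, a biguanide for type 2 diabetes, and particulate matter (PM), inhalable pollution particles. Animals drank metformin (100 mg/kg/day) for 24 h, then received 10 µg of a standard PM through the trachea, and cells were taken 24 h after that. The groups were vehicle then phosphate-buffered saline (vehicle PBS, n = 4 libraries), metformin then PBS (metformin PBS, n = 3), vehicle then PM (vehicle PM, n = 3) and metformin then PM (metformin PM, n = 3). The labels name no transgene or deletion in any group, and they do not say whether a library came from a single mouse, so p-values measure the spread between these libraries.

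Heat shock proteins bind unfolded stretches of other proteins and help them fold. HSP70 chaperones take clients handed over by J-domain proteins and release them when a nucleotide exchange factor, such as an HSP110 protein, swaps ADP for ATP, and many clients then pass to HSP90 through adaptor co-chaperones. Many of these genes are switched on together by the transcription factor HSF1, which binds repeats of the short unit nGAAn in alternating directions, so their mRNA rises when cells are heated or when damaged proteins accumulate.

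The promoter sequences below show how alike Hspa1a and Hspa1b are upstream of their start sites, and which genes carry this repeat near the start. Windows from 250 bases before to 50 after each start were taken from RefSeq (GRCm38.p6) and held 8 of the 10 genes. Hspa8 and Hsp90aa1 were without a window. The capitals mark matches to 2 units facing each other (GAANNTTC) or away from each other (TTCNNGAA), or to 3 units (GAANNTTCNNGAA or TTCNNGAANNTTC). A 3-unit match contains overlapping 2-unit matches, and each motif reads the same on the other strand or pairs with the listed partner. The Hspa1a and Hspa1b stretches, chr17:34972157-34972306 and chr17:34959239-34959388 on the minus strand, are the 150 bases before the start.
Hspa1a: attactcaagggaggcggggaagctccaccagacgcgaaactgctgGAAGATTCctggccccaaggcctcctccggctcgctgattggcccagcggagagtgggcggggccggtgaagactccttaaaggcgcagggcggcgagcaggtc
Hspa1b: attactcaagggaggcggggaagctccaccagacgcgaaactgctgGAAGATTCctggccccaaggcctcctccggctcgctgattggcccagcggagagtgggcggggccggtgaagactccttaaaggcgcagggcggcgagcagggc
Over the whole window of 300 bases the copies differed at 4 positions, an identity of 98.7%: C44T, T47C, T249G and C276T, with the Hspa1a base first and positions counted from 1 at the 5′ end of the window. Chordc1 (chr9:18292261-18292290, plus strand, across its start), Hsph1 (chr5:149636351-149636380 upstream and chr5:149636287-149636311 downstream of a start, minus strand) and Dnaja1 (chr4:40722333-40722362, plus strand) are shown as shorter stretches around their matches. The deposited spans of Hsph1 and Dnaja1 begin further upstream than these RefSeq starts. Most of the Hsph1 upstream stretch and all of the Dnaja1 stretch lie within those spans.
Chordc1: cgGAACGTTCGGGAAAATTCCTGAAgcagt
Hsph1 upstream: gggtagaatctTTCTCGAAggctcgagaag
Hsph1 downstream: aatgctgcagaTTCTGGAAAGTTCt
Dnaja1: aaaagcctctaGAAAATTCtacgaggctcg
A 3-unit match lay in the windows of Chordc1 and Hsph1, against 0.662% of the 27025 genes with a window. A 2-unit match lay in windows of 5 of the 8 genes, against 17.0% of those genes. Dnajb1, Stip1 and Hspa4l had no match to these letters within their windows. A match is a stretch of letters and says nothing of whether a factor was bound.

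The 13 libraries held 5567481 to 8100538 counts, and libraries of a group correlated at 0.9873 to 0.9924 (Pearson's r of log2 CPM, the counts-per-million scale, across genes, which are not independent). The alveolar macrophage markers Siglecf, Itgax, Marco and Chil3 were present in every group, with group means from 172 CPM for Marco after metformin and PBS to 17300 CPM for Chil3 after metformin and PM. The titles are numbered in group order, so an effect of processing order and an effect of group cannot be told apart. Their numbers have a gap in each metformin group and after vehicle PM, for a reason that the titles do not give. In bulk RNA, fewer cells of a type and less RNA per cell cannot be told apart either.

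In vehicle PBS, the most abundant of the genes per length of exon was Hspa8, the constitutive HSP70 of the cytosol, at 270.0 ± 52.3 CPM per kb (SD, n = 4). Hsp90aa1, the stress-responsive cytosolic HSP90, had 56.2 ± 2.75 CPM per kb, and Stip1, the adaptor that joins HSP70 to HSP90, had 50.8 ± 1.81. Dnajb1 followed at 17.2 ± 1.95, Dnaja1 at 11.2 ± 2.20, Hsph1 at 8.22 ± 1.69, Chordc1 at 6.90 ± 0.843 and Hspa4l at 4.74 ± 0.254. Hspa1a and Hspa1b, the stress-inducible HSP70 genes, were lowest at 2.61 ± 0.849 and 2.22 ± 1.08. Of neighbours in this order, the libraries overlapped for Hsp90aa1 and Stip1, Dnaja1 and Hsph1, Hsph1 and Chordc1, and Hspa1a and Hspa1b. In metformin PM, Hspa8 was still highest at 463.0 ± 17.0 CPM per kb, while Hspa1a at 11.8 ± 2.46 and Hspa1b at 18.1 ± 3.85 lay above Hspa4l at 7.92 ± 0.388. Lengths are the exons of GENCODE M21, whose gene boundaries differ from the deposited ones for Hspa8, Dnajb1, Chordc1 and Stip1. The deposited gene lengths differ from these lengths for every gene except Hspa1a and Hspa1b. For Hsp90aa1 they were 9488 bases deposited and 3931 here, and for Chordc1 2205 and 7498. The levels per length, their order and the overlaps between neighbours therefore depend on the lengths used and are approximate. Some transcripts also share stretches of 75 bases, the read length, with other genes. The share was 68.6% for Hspa8, 61.7% for Hspa1a, 55.8% for Hspa1b, 53.1% for Hsp90aa1 and 26.2% for Dnaja1. It was 0.0% for Hsph1, Dnajb1 and Chordc1. How the counting treated reads that fit more than 1 place is not given in the sources used here. The place of genes with shared sequence in this order is therefore uncertain. Values in CPM below are not divided by length and compare libraries, not genes.

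**Figure D1:**
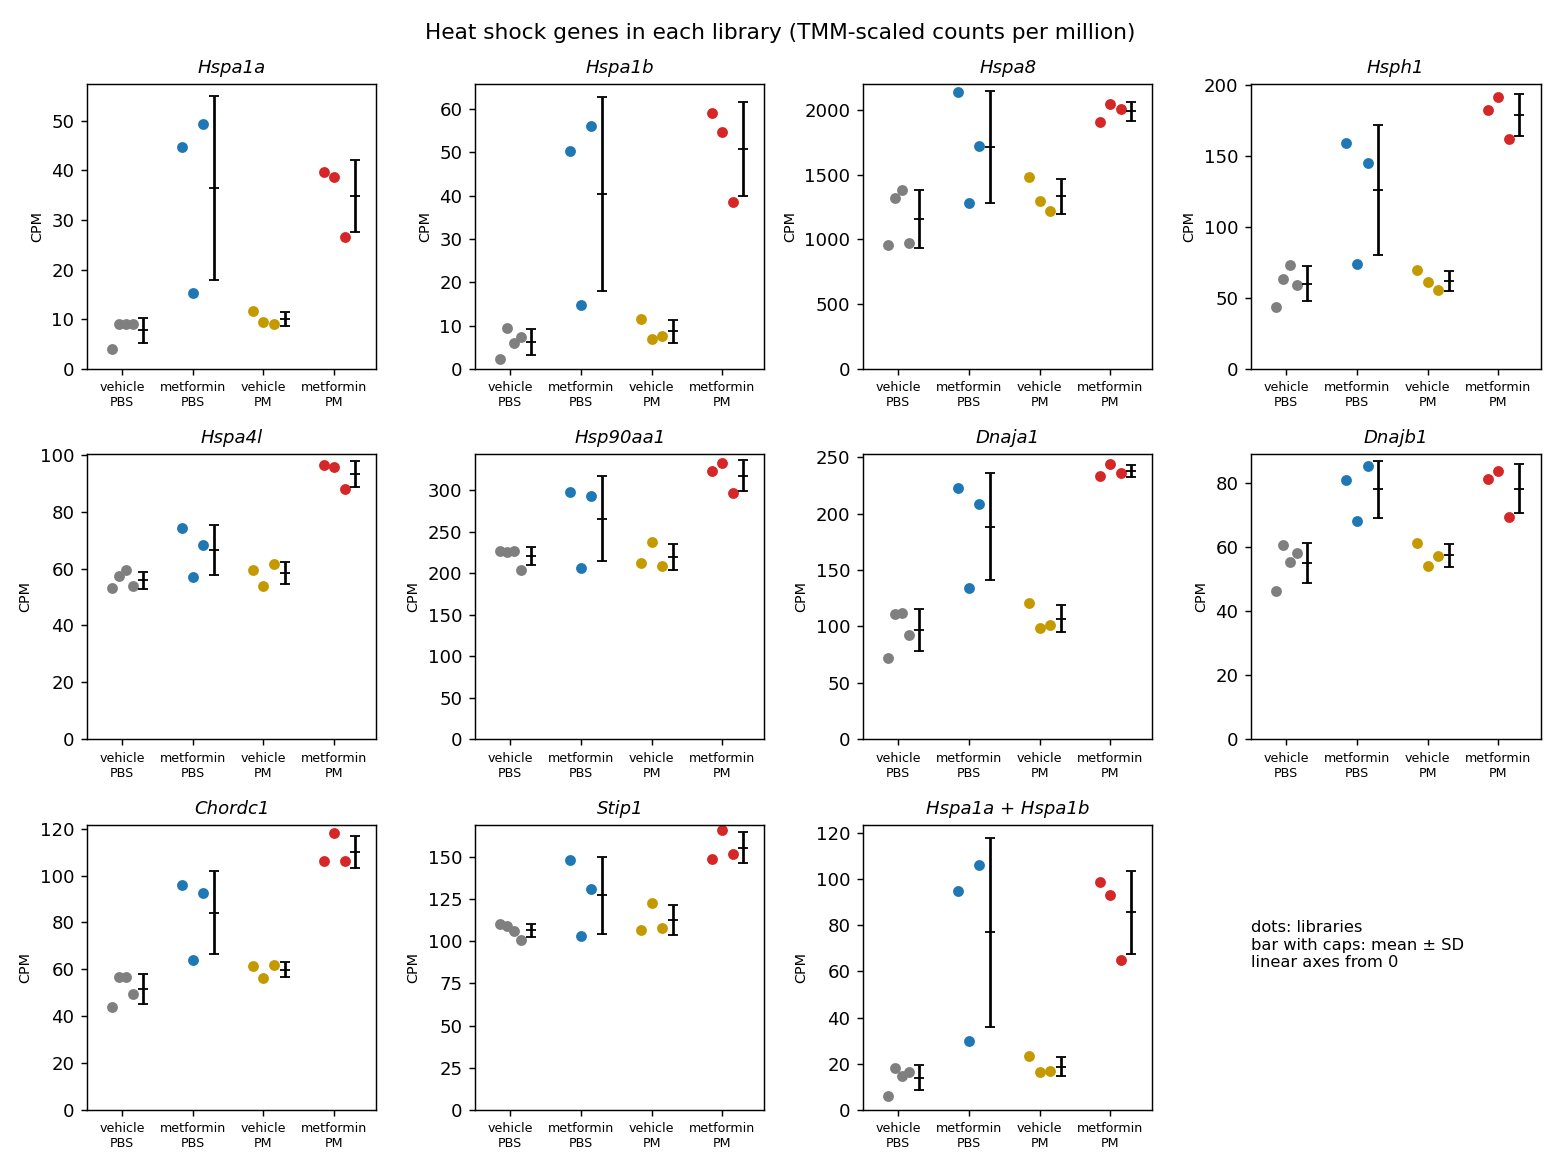
Level of each gene in each library in TMM-scaled CPM (vertical axes, linear from 0) by group (horizontal axes), with the mean ± SD beside the dots. For every gene the 3 metformin PM libraries lie above the 3 vehicle PM libraries, and the middle dot of metformin PBS (replicate 3) lies below the other two of its group.

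Metformin and vehicle were compared after each instillate, which asks whether the drug moved these genes without particles and with them. After PM all 10 genes were called higher with metformin, and after PBS 7 of the 10 were. At an unadjusted p under 0.05 (edgeR) all 10 were higher after PBS, beside 993 of the 11906 genes tested. The inducible pair Hspa1a and Hspa1b rose most, about 4.56-fold as a sum after PM and 5.53-fold after PBS. The other genes that passed rose by smaller amounts, from 1.36-fold (Dnajb1, after PM) to 2.88-fold (Hsph1, after PM). Among all 11906 genes the same test (the quasi-likelihood F test of edgeR, called at a Benjamini-Hochberg adjusted p under 0.05) called 3.07% after PBS, of which 1.13% of all genes were higher, and 6.89% after PM, with 4.08% higher. Libraries with metformin lay wholly above those without for 6 of the 10 genes after PBS and all 10 after PM, as they did for 6.2% and 13.4% of all genes. The median log2 fold change of the 10 genes was 0.64 after PBS and 0.78 after PM, beside 0.00 for all genes in each. The comparisons after PBS and after PM share no library. The 10 genes were chosen with earlier results of these data known. Their counts beside the shares of all genes are therefore a description and not a test of the set.

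Hspa1a lies on chromosome 17 (mm10, chr17:34969190-34972156, minus strand) and Hspa1b beside it (chr17:34956436-34959238, minus strand), and each is a single exon. Hspa1a was at 3.96, 8.93, 8.93 and 9.11 CPM in vehicle PBS and at 44.7, 15.3 and 49.4 CPM in metformin PBS. It was at 11.7, 9.49 and 9.10 CPM in vehicle PM and at 39.6, 38.6 and 26.5 CPM in metformin PM. Every metformin library was above every vehicle library, and metformin PBS replicate 3 was the lowest of the metformin libraries. The log2 fold change with metformin was 2.24 ± 0.31 (SE) after PBS (adjusted p = 0.00199, edgeR) and 1.79 ± 0.32 after PM (adjusted p = 0.00146).

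Hspa1b was at 2.22, 9.40, 5.90 and 7.32 CPM in vehicle PBS and at 50.3, 14.7 and 56.2 CPM in metformin PBS. It was at 11.6, 6.84 and 7.48 CPM in vehicle PM and at 59.1, 54.6 and 38.6 CPM in metformin PM. The groups were separated as for Hspa1a, with the same low library. The log2 fold change was 2.70 ± 0.38 after PBS (adjusted p = 0.00199, edgeR) and 2.55 ± 0.37 after PM (adjusted p = 0.000252).

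The sum of the pair was 13.9 ± 5.37 CPM (SD, n = 4) in vehicle PBS, 76.8 ± 41.0 (n = 3) in metformin PBS, 18.7 ± 3.96 (n = 3) in vehicle PM and 85.7 ± 18.1 (n = 3) in metformin PM. Its log2 fold change was 2.47 ± 0.33 after PBS (adjusted p = 0.00229, edgeR) and 2.19 ± 0.34 after PM (adjusted p = 0.000446). In 75-base stretches, the read length, 61.7% of the Hspa1a transcript and 55.8% of the Hspa1b transcript occurred in a transcript of another gene, and 1524 stretches were common to both copies. The division of reads between the copies therefore depends on how the counting treated reads that fit more than 1 place, and the sum is the firmer value. Hspa1a also shares 564 exon bases with Gm20481 on the opposite strand, which received 919 counts against 1871 for Hspa1a.

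Hspa1b took 58.6% to 59.9% of the pair's counts in the 3 metformin PM libraries and 41.9% to 49.7% in the 3 vehicle PM libraries, which did not overlap. It took 48.9% to 53.2% in metformin PBS and 35.9% to 51.3% in vehicle PBS, which did overlap. The 95% Wilson intervals, which cover counting error only, ran from 54.6% to 63.9% over the metformin PM libraries and from 22.7% to 51.6% in vehicle PBS replicate 1, where the pair had 39 counts. The intervals of vehicle PM replicate 1 (42.2% to 57.2%) and metformin PBS replicate 1 (48.9% to 57%) reached into the range of metformin PM. No test of the share was made.

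**Figure D2:**
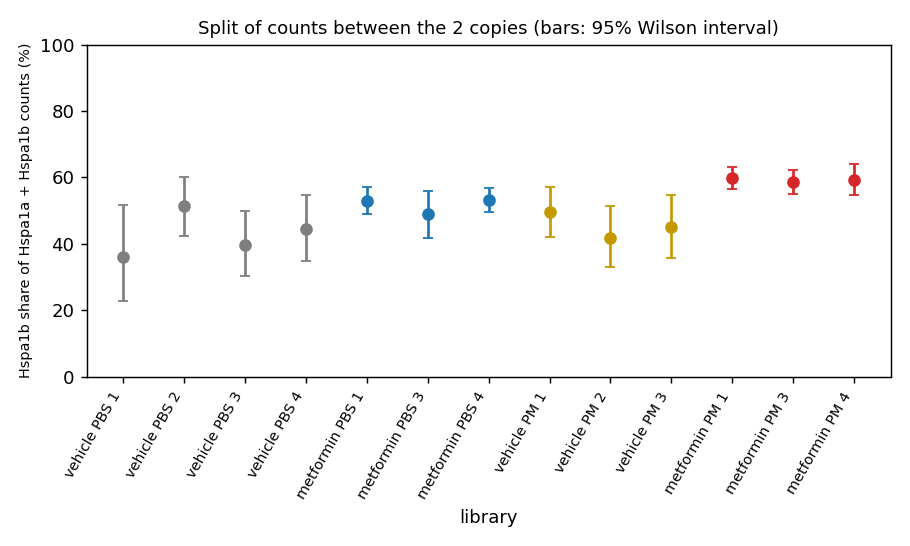
Percent of the counts of Hspa1a plus Hspa1b that were assigned to Hspa1b (vertical axis) in each library (horizontal axis), with 95% Wilson intervals for counting error. The 3 metformin PM libraries sit at 58.6% to 59.9%, and all other libraries at or below 53.2%.

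Hspa8 (chr9:40800984-40805200, plus strand) encodes the HSP70 that cells make without stress. It was at 957, 1320, 1380 and 970 CPM in vehicle PBS and 2140, 1280 and 1720 CPM in metformin PBS, where replicate 3 fell among the vehicle libraries. In PM-treated animals it was at 1480, 1300 and 1220 CPM with vehicle and 1910, 2050 and 2010 CPM with metformin, with no overlap. The rise was 0.57 ± 0.13 on the log2 scale after PBS (adjusted p = 0.0239, edgeR) and 0.58 ± 0.14 after PM (adjusted p = 0.0183). Neither passed with DESeq2, where the adjusted p was 0.0551 and 0.0597. In edgeR the first call was lost without vehicle PBS replicate 1 or 4 or metformin PBS replicate 1 (0.38 log2, adjusted p = 0.127) or 4 and with only the groups compared (0.57 log2, adjusted p = 0.0682), and the second without vehicle PM replicate 2 or 3 or metformin PM replicate 3 or 4. Of the Hspa8 transcript, 68.6% of 75-base stretches also occurred in other genes, most often in Gm15459.

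The HSP110 genes encode nucleotide exchange factors of HSP70. Hsph1 (chr5:149614287-149636376, minus strand) was at 43.7, 63.3, 73.2 and 58.8 CPM in vehicle PBS and 159, 73.6 and 145 CPM in metformin PBS. It was at 69.4, 61.1 and 55.1 CPM in vehicle PM and 182, 191 and 162 CPM in metformin PM. Metformin PBS replicate 3, at 73.6 CPM, lay barely above the highest vehicle PBS library at 73.2 CPM. Hsph1 rose by 1.07 ± 0.18 log2 after PBS (adjusted p = 0.00398, edgeR) and by 1.52 ± 0.19 after PM (adjusted p = 7.17e-05).

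Hspa4l (chr3:40744495-40796103, plus strand), the other HSP110 gene of the set, was at 53.0, 57.3, 59.5 and 54.0 CPM in vehicle PBS and 74.2, 57.0 and 68.4 CPM in metformin PBS. It was at 59.5, 54.0 and 61.6 CPM in vehicle PM and 96.2, 95.8 and 88.1 CPM in metformin PM. The groups overlapped after PBS and were far apart after PM. It did not pass the test after PBS, with a log2 fold change of 0.25 ± 0.08 (adjusted p = 0.108, edgeR), and rose by 0.68 ± 0.08 after PM (adjusted p = 4.77e-05).

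Hsp90aa1 (chr12:110690605-110702728, minus strand) was at 204 to 227 CPM in vehicle PBS, at 298, 206 and 293 CPM in metformin PBS, at 208 to 237 CPM in vehicle PM and at 296 to 333 CPM in metformin PM. As for Hspa4l, metformin PBS replicate 3 lay among the vehicle libraries and the groups after PM did not overlap. The log2 fold change was 0.27 ± 0.09 after PBS (adjusted p = 0.125, edgeR), which did not pass, and 0.54 ± 0.10 after PM (adjusted p = 0.00201). In 75-base stretches, 53.1% of its transcript also occurred in other genes, most often in Gm12346.

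J-domain proteins deliver clients to HSP70 and start its ATP cycle. Dnaja1 (chr4:40722150-40737149, plus strand) was at 71.9, 111, 112 and 92.7 CPM in vehicle PBS and 223, 134 and 208 CPM in metformin PBS. It was at 121, 98.9 and 101 CPM in vehicle PM and 233, 244 and 236 CPM in metformin PM. All metformin libraries were above all vehicle libraries. The rise was 0.96 ± 0.14 log2 after PBS (adjusted p = 0.00242, edgeR) and 1.15 ± 0.15 after PM (adjusted p = 9.89e-05). Dnaja1 shares 608 exon bases with Smu1 on the opposite strand, and the strand setting of the counting is not given in the sources used here.

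Dnajb1 (chr8:83608175-83611902, plus strand), the classic heat-inducible J-domain gene, changed least among the genes called after both instillates. It was at 46.4 to 60.8 CPM in vehicle PBS, 68.2 to 85.3 CPM in metformin PBS, 54.0 to 61.3 CPM in vehicle PM and 69.6 to 83.8 CPM in metformin PM. The ranges with and without metformin did not overlap. Dnajb1 rose by 0.50 ± 0.09 log2 after PBS (adjusted p = 0.00626, edgeR) and by 0.45 ± 0.10 after PM (adjusted p = 0.008). It missed the threshold without metformin PBS replicate 4 (0.44, adjusted p = 0.0528) and without vehicle PM replicate 2 (0.40, adjusted p = 0.0515).

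Chordc1 and Stip1 encode co-chaperones of HSP90. Chordc1 (chr9:18292267-18314000, plus strand), an HSP90-binding zinc protein, was at 43.7, 56.7, 56.8 and 49.5 CPM in vehicle PBS and 95.9, 64.0 and 92.7 CPM in metformin PBS. It was at 61.4, 56.3 and 61.9 CPM in vehicle PM and 106, 118 and 106 CPM in metformin PM. The groups did not overlap after either instillate. The rise was 0.70 ± 0.11 log2 after PBS (adjusted p = 0.00279, edgeR) and 0.88 ± 0.12 after PM (adjusted p = 9.43e-05). Stip1 (chr19:7020696-7040026, minus strand) was at 101 to 110 CPM in vehicle PBS, 148, 103 and 131 CPM in metformin PBS, 107 to 123 CPM in vehicle PM and 149 to 166 CPM in metformin PM. Its log2 fold change was 0.26 ± 0.09 after PBS (adjusted p = 0.126, edgeR), with overlapping libraries, and 0.47 ± 0.09 after PM (adjusted p = 0.00358), without overlap.

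Libraries of the 2 metformin groups differed in how evenly they carried these changes. Metformin PBS replicate 3 was the lowest of its group for all 10 genes, and the genes summed to 2050 CPM there against 3280 and 2880 CPM in the others. The sum was 1560 to 2090 CPM in vehicle PBS, 1880 to 2180 CPM in vehicle PM and 3150 to 3360 CPM in metformin PM. Vehicle PBS replicate 1 was the lowest of its group for 8 of the 10 genes. Without metformin PBS replicate 3, all 10 genes passed after PBS, with Hspa4l at 0.35, Hsp90aa1 at 0.43 and Stip1 at 0.39 log2. Without metformin PBS replicate 4, 5 passed, and without vehicle PM replicate 2, 8 of the 10 passed after PM. The summed monocyte markers, most of them counts of Fn1 and Cd14, were 2950 CPM in metformin PBS replicate 3 against 2320 and 2590 CPM in the others, and their part in the result was not tested. The monocyte markers Ly6c2, Cx3cr1, Ms4a4c and Plac8 were too low to test. Ccr2, another monocyte marker, averaged 8.26 CPM in vehicle PBS and 7.36 CPM in metformin PBS. It averaged 7.22 CPM in vehicle PM and 4.39 CPM in metformin PM, and was not called with metformin after either instillate.

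**Figure D3:**
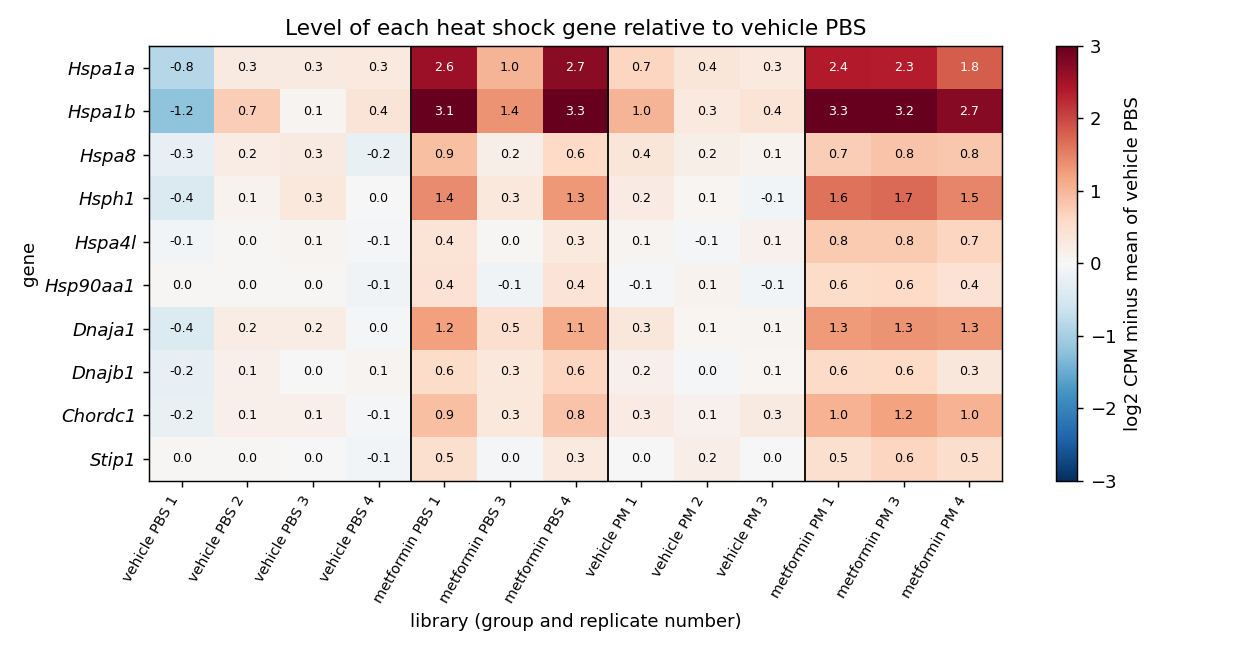
Difference in log2 CPM from the vehicle PBS mean (colour and printed value) for each gene (rows) in each library (columns, lines between groups). The metformin PBS columns of replicates 1 and 4 and all metformin PM columns are above 0 for every gene, and the metformin PBS replicate 3 column is paler than its neighbours.

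The effect of PM itself was compared within each drinking-water treatment, and these comparisons share their libraries with the metformin comparisons above. On vehicle, no difference passed the test: 0 of the 10 genes were called by edgeR, 0 at an unadjusted p under 0.05 and 0 by DESeq2 or limma-voom, while 4.85% of all genes were called. The vehicle PM and vehicle PBS libraries overlapped for every one of the 10 genes, while for 7.33% of all genes the PM libraries were all higher. The median log2 fold change was 0.11. The values nearest the threshold were 0.21 ± 0.12 for Chordc1 (95% interval -0.03 to 0.46, adjusted p = 0.393, edgeR) and 0.20 ± 0.14 for Hspa8 (-0.08 to 0.49, adjusted p = 0.504). For the sum of Hspa1a and Hspa1b it was 0.44 ± 0.41, and the interval from -0.41 to 1.29 leaves room for a change in the pair that this number of libraries could not detect.

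On metformin, 3 of the 10 genes were called higher after PM than after PBS, where 12.8% of all genes were called and 7.18% were higher. At an unadjusted p under 0.05 (edgeR) 6 were higher, beside 1700 of the 11906 genes tested. Hspa4l rose by 0.49 ± 0.08 log2 (adjusted p = 0.000476, edgeR), Chordc1 by 0.39 ± 0.11 (adjusted p = 0.0261) and Stip1 by 0.30 ± 0.09 (adjusted p = 0.0392). Hsph1 at 0.50 ± 0.18 (adjusted p = 0.0772), Dnaja1 at 0.33 ± 0.15 (adjusted p = 0.151) and Hsp90aa1 at 0.26 ± 0.10 (adjusted p = 0.0983) did not pass. With limma-voom Hsph1 did, at 0.58 log2 (adjusted p = 0.0465), so that 4 genes were called there and 3 by DESeq2. Libraries did not overlap for Hsph1, Hspa4l, Dnaja1, Chordc1 and Stip1, as for 16.1% of all genes in that direction. The sum of Hspa1a and Hspa1b was 0.16 ± 0.28 and Dnajb1 0.01 ± 0.10, neither called. Without metformin PBS replicate 3 only Hspa4l passed, and Chordc1 was at 0.22 log2. Without metformin PM replicate 3 again only Hspa4l passed, with Chordc1 at 0.33, and without metformin PBS replicate 1, 6 genes passed. The call for Stip1 was lost when any 1 of 8 libraries was left out, and its value was 0.16 log2 without metformin PBS replicate 3.

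The difference between the PM effect on metformin and that on vehicle, which equals the difference between the metformin effects after PM and after PBS, passed for 0 of the 10 genes by edgeR, beside 1.44% of all genes. At an unadjusted p under 0.05 there was 1, Hspa4l, at 0.43 ± 0.12 log2 (95% interval 0.19 to 0.67, adjusted p = 0.0735), and by DESeq2 and limma-voom 0. For Hsph1 the difference was 0.45 ± 0.27 (-0.11 to 1.01), for Hsp90aa1 0.27 ± 0.13 (-0.02 to 0.55) and for the Hspa1a and Hspa1b sum -0.28 ± 0.49 (-1.31 to 0.76). The larger number of genes called with metformin after PM than after PBS is thus not shown to be a difference in the effect of metformin.

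**Figure D4:**
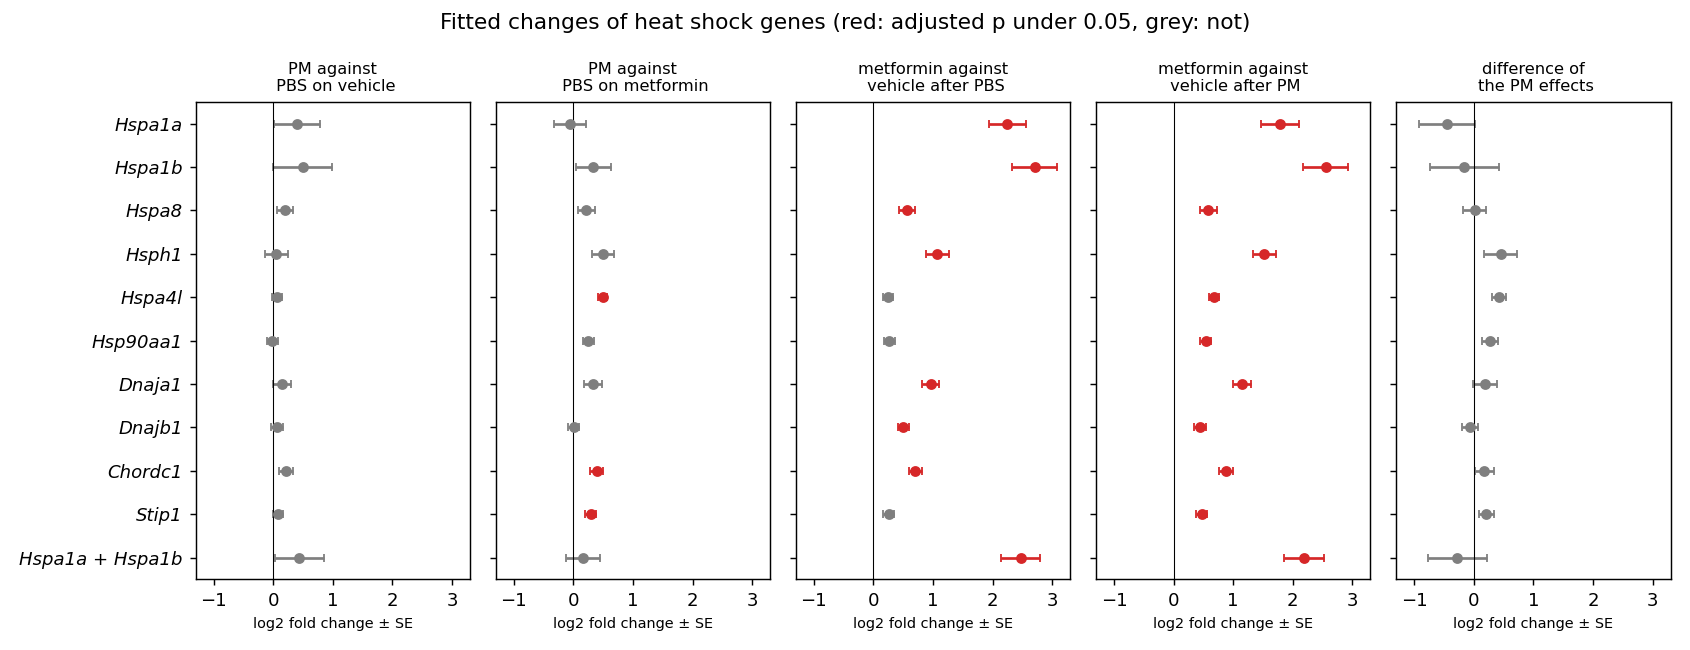
Fitted log2 fold change ± SE (horizontal axes) of each gene (vertical axis) in the 5 comparisons, red where the adjusted p was under 0.05. All points of metformin against vehicle after PM are red and above 0, 3 genes are grey after PBS, and no point is red for PM against PBS on vehicle or for the difference of the PM effects.

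The 10 genes varied together. Over the 13 libraries, Pearson's r of log2 CPM between pairs of the genes ran from 0.738 to 0.989 over 45 pairs, with a median of 0.911. With group means removed it ran from 0.297 to 0.965, with a median of 0.776, and all 45 values were above 0. The values share library, depth and scaling and are a description. The genes most like the mean of the 10 over the 13 libraries were Bag3 (r = 0.975), an HSP70 nucleotide exchange factor, and Eif2ak3 (0.975), the kinase PERK of the endoplasmic reticulum. They were followed by Cds2 (0.970), Herpud1 (0.969), Tmem33 (0.967), Creb3l2 (0.966), Cybc1 (0.962), Syvn1 (0.956), Hspa5 (0.956), the HSP70 of the endoplasmic reticulum, and Mtmr4 (0.947). With group means removed, the closest were Pex26 (0.933), Herpud1 (0.922), Sfpq (0.907), Hspa5 (0.894), Trabd (0.886), Mrps6 (0.882), Phtf1os (0.882), Eif2ak3 (0.879), Arg2 (0.877) and Siva1 (0.876).

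Other chaperone genes are given by family, and whether they changed less often than the 10 was not tested. Among 5 tested genes of the HSP70 and HSP110 family, Hspa12a was higher with metformin after PBS (0.36 ± 0.08 log2, adjusted p = 0.0123, edgeR) and Hspa13 after PM (0.59 ± 0.13, adjusted p = 0.00704). The call for Hspa12a was lost without metformin PBS replicate 3. Hspa9, the mitochondrial HSP70, was at -0.04 and -0.10 log2, neither called. Hsp90ab1, the constitutive HSP90, and Trap1, the mitochondrial one, were not called with metformin, with Hsp90ab1 at 0.16 ± 0.07 after PBS and 0.21 ± 0.08 after PM. Hspa1l and Hspa12b were too low to test.

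Of 11 tested J-domain genes outside the set, Dnajb6 (0.27 ± 0.06, adjusted p = 0.00956, edgeR) and Dnajb2 (0.61 ± 0.17, adjusted p = 0.0339) rose with metformin after PM, and 0 were called after PBS, with 1 at an unadjusted p under 0.05, 1 by DESeq2 and 0 by limma-voom. The call for Dnajb6 was lost without vehicle PM replicate 1, and that for Dnajb2 without any of vehicle PM replicates 1, 2 and 3 and metformin PM replicates 1 and 3. Of 9 nucleotide exchange factors, Bag3 was the 1 called, after PBS (0.47 ± 0.09, adjusted p = 0.00912) and after PM (0.58 ± 0.10, adjusted p = 0.000941), and the first of these was lost without metformin PBS replicate 4. Of 19 co-chaperones, 1 was higher with metformin after PBS and 3 after PM (2 by DESeq2 and 3 by limma-voom), and 0 were lower. Cacybp rose after PBS (0.33 ± 0.08, adjusted p = 0.031) and after PM (0.39 ± 0.09, adjusted p = 0.00808). The call for Cacybp after PBS was lost without vehicle PBS replicate 1 or 4 or metformin PBS replicate 1 or 4 and with only the groups compared. Unc45a, which encodes a chaperone of myosin, rose after PM (0.28 ± 0.08, adjusted p = 0.036, edgeR), and its call was lost without any of vehicle PM replicates 1, 2 and 3 and metformin PM replicates 1 and 4, with DESeq2 and with the replicate block.

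Fkbp5, an HSP90 co-chaperone and a classic glucocorticoid target, was higher with PM on vehicle and on metformin, and higher with metformin after PM only. Its mean was 122 CPM in vehicle PBS, 103 in metformin PBS, 218 in vehicle PM and 336 in metformin PM. It rose with PM by 0.84 ± 0.10 log2 on vehicle (adjusted p = 1.96e-05, edgeR) and by 1.70 ± 0.11 on metformin (adjusted p = 4.88e-09), and the difference of 0.86 ± 0.14 passed the test (adjusted p = 0.00451). With metformin it was not called after PBS (-0.24 ± 0.10) and rose after PM (0.62 ± 0.10, adjusted p = 0.000761).

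No gene of the chaperonin and prefoldin families was called with metformin. The 10 tested chaperonin genes, Hspd1 and Hspe1 among them, had median log2 fold changes of 0.01 after PBS and 0.03 after PM. The 6 tested prefoldin genes had medians of -0.02 and -0.04. By unadjusted p under 0.05, and by DESeq2 and limma-voom, there were 0 in either family in either comparison. The 3 tested heat shock factor and regulator genes were not called by any of the 3 tools either, with Hsf1, the master regulator, at 0.21 ± 0.10 after PBS (adjusted p = 0.257, edgeR) and 0.06 ± 0.10 after PM (adjusted p = 0.817). Small heat shock proteins were low, with 2 of 10 tested and none of these called, and Hspb1, a heat-inducible one, had mean levels of 0.536 to 1.21 CPM and was too low to test.

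Among 7 other heat-inducible genes, Jmjd6 (0.39 ± 0.09 log2, adjusted p = 0.0161, edgeR), Dedd2 (0.36 ± 0.08, adjusted p = 0.017) and Bag3, counted above as well, were higher with metformin after PBS, and Bag3 was after PM. The call for Jmjd6 was lost without vehicle PBS replicate 1 or metformin PBS replicate 1 or 4, and that for Dedd2 without vehicle PBS replicate 1 or 2 or metformin PBS replicate 3 or 4.

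Chaperones of the endoplasmic reticulum moved with the set in part. With metformin, edgeR called 1 of 15 higher after PBS (0 by DESeq2, 1 by limma-voom) and 6 of 15 after PM (5 and 6). With PM, 13 of 15 were higher on metformin (10 by DESeq2, 13 by limma-voom), and 0 on vehicle by any of the 3 tools, where 2 had an unadjusted p under 0.05. The 13 calls on metformin fell to 1, Creld2, without metformin PBS replicate 3 or metformin PM replicate 3. Hspa5, which encodes the chaperone BiP, averaged 996 CPM in vehicle PBS, 1410 in metformin PBS, 1180 in vehicle PM and 1920 in metformin PM. It rose with metformin by 0.51 ± 0.12 log2 after PBS (adjusted p = 0.0239, edgeR) and 0.70 ± 0.13 after PM (adjusted p = 0.00217), and the first call was lost without vehicle PBS replicate 1 or metformin PBS replicate 1 or 4, with DESeq2, with the replicate block and with only the groups compared. Creld2 (0.66 ± 0.11, adjusted p = 0.00117), Dnajc3 (0.42 ± 0.08, adjusted p = 0.00181) and Manf (0.64 ± 0.14, adjusted p = 0.00596) also rose with metformin after PM. For none of the 15 did the difference of the PM effects pass the test in edgeR, DESeq2 or limma-voom, with 4 at an unadjusted p under 0.05.

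**Figure D5:**
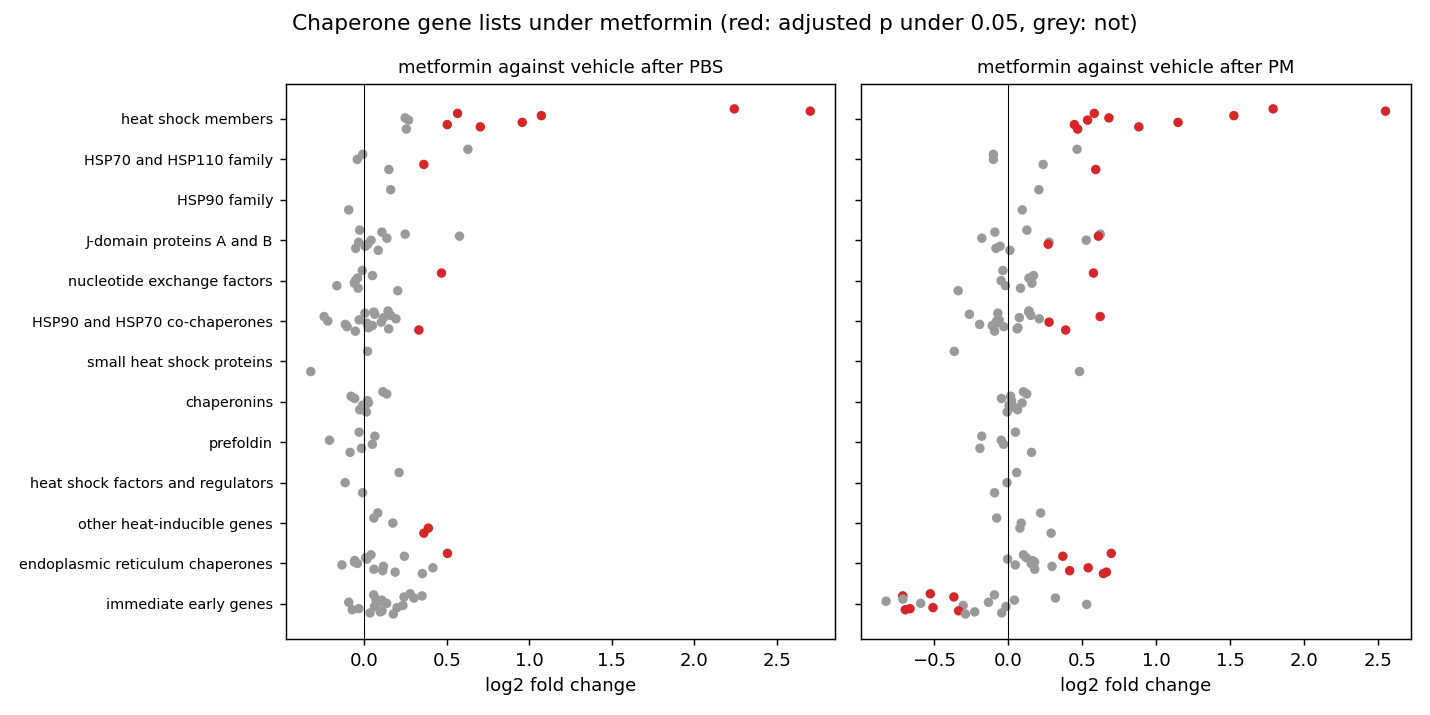
Log2 fold change with metformin (horizontal axes) of each tested gene in families of chaperone and stress genes (vertical axis; each gene is drawn once, in the first list that holds it), after PBS and after PM, red where the adjusted p was under 0.05. The largest rises are among the 10 heat shock genes, though the smaller rises of the 10 lie below those of some genes in other families. Chaperonins and prefoldin lie close to 0, and the called immediate early genes after PM are below 0.

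Other groups of genes moved in the same libraries. Immediate early genes, which cells switch on within minutes of handling or stimulation, were lower with metformin after PM for 7 of 20 and higher for 0 by edgeR and limma-voom, and lower for 7 and higher for 1 by DESeq2. Dusp1 was at -0.66 ± 0.12 log2 (adjusted p = 0.00164, edgeR), Btg2 at -0.51 ± 0.09 (adjusted p = 0.00185), Fos at -0.53 ± 0.11 (adjusted p = 0.00422) and Klf4 at -0.34 ± 0.07 (adjusted p = 0.00473). After PBS 0 of 20 were called by edgeR, 1 by DESeq2 and 0 by limma-voom, with 5 higher and 0 lower at an unadjusted p under 0.05. Without vehicle PBS replicate 3, 6 were called higher. Their summed level was 10300 to 14000 CPM in vehicle PBS, 12200 to 14300 in metformin PBS, 13900 to 17100 in vehicle PM and 11800 to 12900 in metformin PM. With PM on vehicle, 10 of the 20 were higher and 1 was lower by each of the 3 tools. The difference of the PM effects was called lower for 5 of the 20 and higher for 0 by each tool. Among all 11906 genes, edgeR called 334 lower with metformin after PM. Endothelial and stromal markers were higher with metformin after PM for 3 of 8 tested genes, Pecam1, Col1a1 and Col1a2 (2 by DESeq2, 3 by limma-voom), and for 0 without vehicle PM replicate 1 or 2 or metformin PM replicate 3. All 9 listed markers summed to 29.5 to 52.0 CPM in metformin PM against 11.1 to 31.5 CPM in vehicle PM, 12.1 to 19.7 CPM in metformin PBS and 13.4 to 25.5 CPM in vehicle PBS. None of the 9 listed markers was at 0 in every library.

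After PBS, 2 of 16 alveolar macrophage markers were lower with metformin and 0 were higher. Marco, a scavenger receptor, was at -1.11 ± 0.17 log2 (adjusted p = 0.00245, edgeR), with means of 372 CPM in vehicle PBS and 172 CPM in metformin PBS. Lpl, which encodes lipoprotein lipase, was at -0.31 ± 0.06 (adjusted p = 0.00684, edgeR). The 16 markers summed to 33900 to 37900 CPM in vehicle PBS and 32000 to 33800 CPM in metformin PBS. Of 4 tested neutrophil markers Mmp8 was lower (-0.67 ± 0.13, adjusted p = 0.00888, edgeR). Its means were 32.5 CPM in vehicle PBS and 20.4 CPM in metformin PBS. S100a8 (0.24 log2), Csf3r (0.19) and Cxcr2 (-0.40) were not called. The 9 listed neutrophil markers summed to 66.0 to 83.2 CPM in vehicle PBS and 62.5 to 66.1 CPM in metformin PBS. Ly6g, Retnlg and Camp were at 0 in every library. Of 7 tested epithelial markers Cdh1 was lower (-0.44 ± 0.09, adjusted p = 0.0136, edgeR), a call that was lost without metformin PBS replicate 3. The 9 listed, none at 0 in every library, summed to 235 to 281 CPM in vehicle PBS and 240 to 295 CPM in metformin PBS. After PM the 7 had a median of 0.68 log2 with metformin, with 4 higher and 1 lower at an unadjusted p under 0.05. Ager was called higher (0.905 ± 0.256, adjusted p = 0.0371, edgeR) and 0 were called lower. Its call was lost with limma-voom, with the replicate block and without any of vehicle PM replicates 1, 2 and 3 and metformin PM replicates 3 and 4. Of the 16 alveolar macrophage markers after PM, edgeR called Plet1 and Cidec higher and Lpl and Car4 lower. The part of these markers, of the immediate early genes and of the endothelial and stromal markers in the rise of the chaperone genes was not tested.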

How the data were processed

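The authors deposited 1 table of raw read counts per gene for 13 libraries, per the file headers. Polyadenylated RNA (100 ng) was read as 75 bp single ends, per the labels' protocols. Reads were demultiplexed with bcl2fastq 2.19, aligned to mm10 with TopHat2 and counted with HTSeq, and edgeR was used, per the submitters' processing notes. The annotation release and the strand setting are not given in the sources used here. The other columns deposited by the authors (unit "other": gene position and length) were used for positions only.

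Counts were tested here in R 4.3.3 with edgeR 4.0.16: filterByExpr, TMM scaling and a quasi-likelihood fit with 1 coefficient per group over 11906 genes, with Benjamini-Hochberg adjustment over all of them within each of 5 comparisons and a threshold of 0.05. The SE is the size of the log2 fold change divided by the square root of F. No block was used. The fit was tested on simulated data. The genes described and the 20 gene lists were chosen with earlier results of these data known. Text names all 10 genes and, from each other list, up to 4 called genes per comparison, lowest adjusted p first. Alternatives were DESeq2 1.42.0, limma-voom (limma 3.58.1), other scalings and filters, fewer groups, a replicate block and leaving out each library. Depth was 5567481 to 8100538 counts. Promoters came from RefSeq, exons and transcripts from GENCODE M21. Figures used Python 3.11.15 and Matplotlib 3.10.9.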

Additional observations from a re-analysis of the deposited data

Results flagged for a closer look

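Vehicle PBS, the only group with 4 libraries, was searched for libraries far from the rest of their group, a search that by chance picks about 1 in 20 groups. For Hspa1a, the lowest library (replicate 1) was at 3.96 CPM, with the other 3 between 8.93 and 9.11 CPM. For Hsp90aa1, the lowest library (replicate 4) was at 204 CPM, with the other 3 between 225 and 227 CPM. The other 8 genes and the sum of Hspa1a and Hspa1b had no such library.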

How the results depend on the processing

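With metformin after PBS, 5 to 10 of the 10 genes were called when 1 library was left out and 6 to 10 under the other alternatives, and after PM 8 to 10 and 9 to 10. All these changes with metformin stayed above 0. With PM on metformin, 1 to 6 were called with 1 library left out, and for the difference 0 to 1. Without a filter on low counts 21968 genes were tested and the prior degrees of freedom became infinite. There, 8 genes were called for PM on metformin, 1 for PM on vehicle and 2 for the difference, and over all genes 507 for the difference and 813 for metformin after PBS. With only the groups compared, 200 genes in all were called for metformin after PBS, against 365. With 1 library left out, all genes called ranged from 884 to 1666 for PM on metformin (1522 in the full fit), 359 to 645 for PM on vehicle (578), 113 to 262 for the difference (171), 121 to 503 for metformin after PBS and 419 to 954 for metformin after PM (820).

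The signs that changed were those of values that did not pass the test in the full fit. Dnajb1 for PM on metformin was -0.003 log2 with DESeq2, -0.002 with RLE factors, without a filter and with only the groups compared, -0.013 with library totals and 0.000 with the filter of 5 CPM in 3 libraries. Hspa1a for PM on metformin was 0.103 with limma-voom, and Hspa8 for the difference was 0.000 without a filter. With 1 library left out, the ranges that crossed 0 were as follows. For PM on metformin they were -0.091 to 0.071 for Dnajb1, -0.428 to 0.231 for Hspa1a, -0.066 to 0.657 for Hspa1b and -0.227 to 0.464 for the sum. For PM on vehicle they were -0.014 to 0.113 for Dnajb1, -0.077 to 0.025 for Hsp90aa1 and -0.072 to 0.168 for Hsph1. For the difference they were -0.014 to 0.318 for Dnaja1, -0.153 to 0.020 for Dnajb1, -0.561 to 0.163 for Hspa1b, -0.669 to 0.024 for the sum and -0.165 to 0.195 for Hspa8. The cause was not tested.

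The titles give replicate numbers. Between libraries with the same number, r of the deviations from group means was -0.102 to 0.116 over 16 pairs, with a median of -0.001. Over the 47 other pairs it was -0.143 to 0.141, with a median of -0.005. Of the 13 libraries, 6 correlated best with their own number, and whether that is more than expected by chance was not tested. A replicate block left the numbers of the 10 genes called at 0, 3, 7, 10 and 0 and lowered the count over all genes for metformin after PM from 820 to 535. With 3 or 4 libraries a group, small changes of Hspa1a and Hspa1b, at 14 to 83 counts a copy in vehicle libraries, could be missed.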
